A study of Mus musculus with 8 samples.

Results

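Connexins are the protein subunits of gap junctions, and the 6 connexin genes described here are Gja1, Gjc1, Gja5, Gja4, Gja3 and Gjb2. Their rows were found by gene symbol in the platform annotation of the array, but the genes were proposed with earlier results of these data known. Each gene had 1 row, so 6 of 22206 rows were members. Left ventricular tissue from male mice aged 8 weeks was profiled in 8 samples on 8 expression arrays, 1 array per sample. The 4 miR-100 samples came from Cre positive miR100flox/+ males, bred from the Myh6-Cre line B6.FVB-Tg(Myh6-Cre)2182/J and miR-100flox/flox mice, and overexpressed the microRNA miR-100 in heart tissue. The 4 WT samples were wild type. All mice were of strain C57/BL6J and untreated. Myh6 is active in heart muscle cells, so the transgene is expected in those cells and not in vessels or connective tissue, although whole ventricle was measured. Whether the WT mice carried Cre is not given in the sources used here, and an effect of Cre and one of miR-100 cannot be told apart in this design.

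A ring of connexins forms a hemichannel in the membrane, and hemichannels of neighbouring cells dock into a channel that passes ions and small molecules. In the heart these channels carry the electrical impulse from cell to cell, mainly at the intercalated discs where muscle cells meet end to end. Gja1 encodes connexin 43, the main connexin of working ventricular muscle. Gjc1 encodes connexin 45, which forms low-conductance channels in the conduction system and is prominent in the embryonic heart. Gja5 encodes connexin 40 of the atria, the His-Purkinje system and arterial endothelium, and Gja4 encodes connexin 37 of arterial endothelium. Gja3 encodes connexin 46, best known from the lens, and Gjb2 encodes connexin 26, best known from the inner ear and epithelia.

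The agent of the study is shown first, because its seed is what a microRNA reads its targets with. Mature mouse miR-100-5p lies at chr9:41531437-41531458 on the plus strand (RefSeq, GRCm38.p6), and 2 relatives, miR-99a-5p at chr16:77598940-77598961 and miR-99b-5p at chr17:17830194-17830215, both on the plus strand, carry the same seed. Capitals mark the seed, bases 2 to 8.
mmu-miR-100-5p: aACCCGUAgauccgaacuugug
mmu-miR-99a-5p: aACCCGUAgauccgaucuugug
mmu-miR-99b-5p: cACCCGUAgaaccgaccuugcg
The labels do not say which arm was overexpressed. The table had 0 rows named for Mir100 or its host gene Mir100hg, so the arrays give no level of the microRNA. Whether any connexin transcript holds a site for this seed was not tested.

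The arrays resembled each other, with correlations over all rows between 0.988 and 0.993. On the first principal component, which held 21.7% of the variance, all miR-100 arrays lay above 0 and all WT arrays below 0. Arrays miR-100 replicate 2 and WT replicate 2 lay apart from the rest of their groups, farther out on the same side. Scores were 30.8 in miR-100 replicate 2 and 8.96 to 13.5 in the other miR-100 arrays, against -38.2 in WT replicate 2 and -13.0 to -3.49 in the other WT arrays. Column medians ran from 5.70 to 5.74 log2 signal. By limma with Benjamini-Hochberg adjustment over all 22206 rows, 31 of them (0.14%) lay below an adjusted p of 0.05, 21 higher and 10 lower in miR-100 hearts. That count was 11 without miR-100 replicate 3 or 4, 12 without miR-100 replicate 1, and 15 without WT replicate 2 or 3. The labels name no animals, so p-values measure the spread between these 8 samples, which may be partly technical, and with so few arrays the precision is limited by their number.

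Of the connexin genes, 2 differed in opposite directions between the groups without passing the test across all rows. The main ventricular connexin gene Gja1 was higher on every miR-100 array than on any WT array, and the gene of the low-conductance connexin, Gjc1, was lower on every miR-100 array than on any WT array. The other 4 members overlapped between the groups. None of the 6 members passed an adjusted p of 0.05 (0 of 6 in limma, against 0.14% of all rows). At an unadjusted p under 0.05 there were 2 of 6, against 7.73% of all rows. The groups did not overlap in 2 of 6 members, against 4.54% of all rows. By direction, Gja1 was the 1 member higher without overlap and Gjc1 the 1 member lower without overlap, where all rows had 2.21% higher and 2.33% lower. With the unadjusted p the background was 3.55% of rows higher and 4.17% lower. The median difference of the 6 members was 0.07 on the log2 scale, and that of all rows was -0.015. Differences lay above 0 in 4 of 6 members and in 46.6% of all rows.

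Gja1 had log2 signals of 15.97, 16.00, 15.91 and 16.34 in miR-100 hearts, against 15.81, 15.72, 15.36 and 15.49 in WT hearts. All miR-100 arrays lay above all WT arrays, with a gap of 0.10 between the lowest miR-100 and the highest WT value. The means were 16.06 ± 0.19 in miR-100 and 15.60 ± 0.21 in WT hearts (log2 signal, SD, n = 4 each). Connexin 43 RNA was thus 1.38-fold higher, a log2 difference of 0.46 (SE 0.16, 95% confidence interval 0.12 to 0.80), with an unadjusted p of 0.0125 and an adjusted p of 0.432 (limma). By unadjusted p this row ranked 642 of 22206. Without single arrays the difference ran from 0.36 (without miR-100 replicate 4) to 0.53 (without WT replicate 1), and it was 0.48 without miR-100 replicate 2 and 0.50 without WT replicate 2, the arrays that lay apart. The interval is that of a single row and is not adjusted for the number of rows.

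Gjc1 had log2 signals of 8.67, 9.02, 8.84 and 8.95 in miR-100 hearts, against 9.29, 9.43, 9.65 and 9.34 in WT hearts. The groups were separated by 0.27, more than the SD of either group. The means were 8.87 ± 0.15 in miR-100 and 9.43 ± 0.16 in WT hearts (log2 signal, SD, n = 4 each). The log2 difference was -0.56 (SE 0.15, 95% confidence interval -0.88 to -0.24), so that connexin 45 RNA in miR-100 hearts was 0.679 times that in WT hearts. Its unadjusted p of 0.00224 ranked 196 of 22206 rows, and its adjusted p was 0.252 (limma). Without single arrays the difference ran from -0.61 (without miR-100 replicate 2) to -0.48 (without WT replicate 3), and it was -0.56 without WT replicate 2. In whole ventricle, fewer cells that express a gene and less RNA per cell cannot be told apart.

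**Figure D1:**
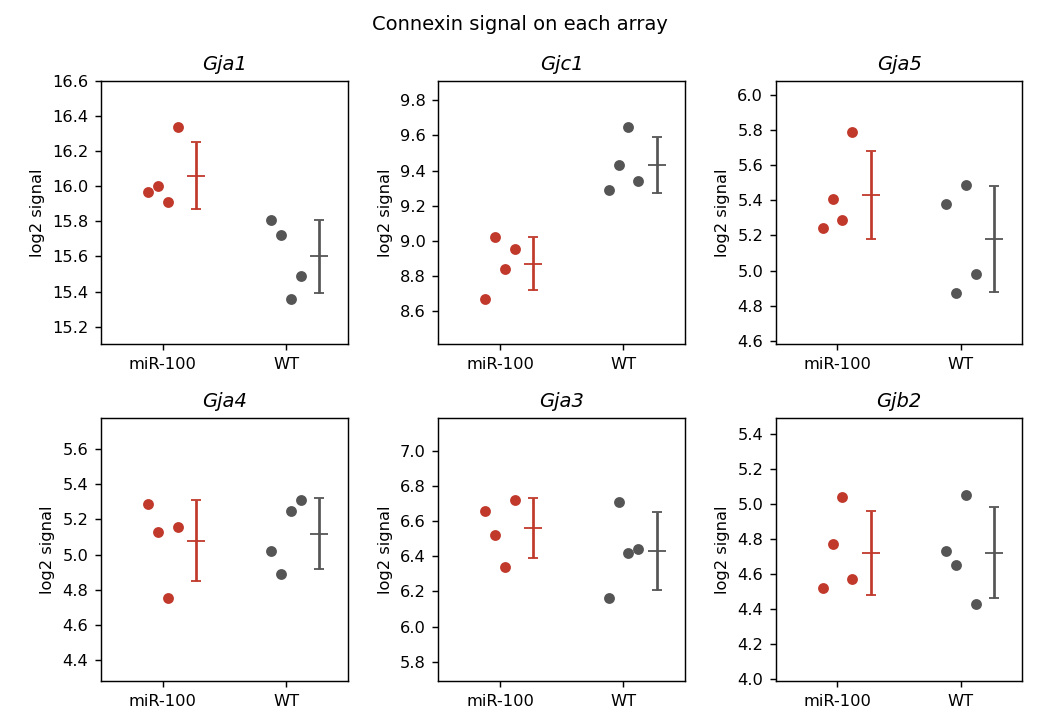
Log2 signal (vertical axis, each panel spanning 1.5 log2 units) of the 6 connexin genes on each array, miR-100 left and WT right. Points are arrays in replicate order and bars are the mean with the SD (n = 4 each). The groups do not overlap for Gja1, where miR-100 is higher, and for Gjc1, where miR-100 is lower.

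Gja5, the atrial and arterial connexin gene, had 5.24, 5.41, 5.29 and 5.79 in miR-100 hearts, against 5.38, 4.87, 5.49 and 4.98 in WT hearts (log2 signal). WT replicates 2 and 4 lay below all miR-100 arrays, and the other WT arrays lay among them. The log2 difference was 0.25 (SE 0.18, 95% confidence interval -0.14 to 0.65) with an adjusted p of 0.821 (limma). Gja4, its partner in arterial endothelium, had 5.29, 5.13, 4.75 and 5.16 in miR-100 hearts, against 5.02, 4.89, 5.25 and 5.31 in WT hearts (log2 signal). Its log2 difference of -0.04 (95% confidence interval -0.39 to 0.32, limma adjusted p = 0.983) turned above 0 without miR-100 replicate 3 (0.08), WT replicate 3 (0.01) or WT replicate 4 (0.03). Gja5 stayed above 0 in all 8 fits without an array, at 0.13 to 0.36, and passed the threshold in none of them.

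The connexin genes best known outside the heart overlapped between the groups. Gja3 had 6.66, 6.52, 6.34 and 6.72 in miR-100 hearts, against 6.16, 6.71, 6.42 and 6.44 in WT hearts (log2 signal), a difference of 0.13 (95% confidence interval -0.21 to 0.47, limma adjusted p = 0.914). Gjb2 had 4.52, 4.77, 5.04 and 4.57 in miR-100 hearts, against 4.73, 4.65, 5.05 and 4.43 in WT hearts (log2 signal), a difference of 0.01 (95% confidence interval -0.36 to 0.38, limma adjusted p = 0.995) that turned to -0.10 without miR-100 replicate 3 and to -0.09 without WT replicate 4. Both intervals include 0 and changes of either sign, so a small difference of these genes was not detectable with 4 arrays a group.

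The members differed widely in where their rows stood among all rows. Signals of different probe sets are not on a common scale, so each row was placed only among the means of all rows over the 8 arrays. Gja1 stood at percentile 98.7 and Gjc1 at percentile 78.1. Gja3 stood at 57.6, Gja5 at 45.2, Gja4 at 42.5 and Gjb2 at 36.4. As a description chosen after the values were seen, 1080 rows of olfactory receptor genes, which serve smell in the nose, had a median row mean of 3.86 and a 95th percentile of 5.04 log2 signal. The row means of Gja5, Gja4 and Gjb2 were 5.31, 5.10 and 4.72, near the upper end of that range or inside it, and that of Gja3 was 6.50. How far these rows lie above the background of the array was not measured. The ceiling of the table, at 19.93, lay well above Gja1.

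To compare the connexins with each other, the log2 ratio of each pair was formed within every array and its group means were set against all 70 ways to assign the arrays to 2 groups of 4 (exact permutation, two-sided), for 15 pairs. The smallest p this design allows is 0.0286. The Gja1 to Gjc1 ratio moved most, as its terms differed in opposite directions. Set to 0 at the mean of the WT arrays, it was 1.13, 0.81, 0.90 and 1.22 on the miR-100 arrays, against 0.35, 0.12, -0.46 and -0.02 on the WT arrays. The difference was 1.02 on the log2 scale, a 2.02-fold higher ratio in miR-100 hearts, and the groups did not overlap (exact permutation p = 0.0286, adjusted p = 0.107 over the 15 pairs). As both rows already separated the groups, in opposite directions, their ratio had to separate them too. The p of this ratio was thus fixed by the rows and is no further support. Leaving out single arrays, the difference ran from 0.87 without WT replicate 3 to 1.14 without WT replicate 1.

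In all, 4 of 15 pairs reached the smallest possible p, and each of them contained Gjc1. The ratio of Gjc1 to Gja5 differed by -0.81, that to Gja3 by -0.68 and that to Gjb2 by -0.57 (log2, exact permutation p = 0.0286 and adjusted p = 0.107 for each). The groups did not overlap in these ratios. The ratio of Gjc1 to Gja4 differed by -0.52 and overlapped (exact permutation p = 0.0571, adjusted p = 0.171). After adjustment 0 of 15 pairs passed. With so few arrays, a pair could pass only if many others also reached the smallest possible p. These 15 ratios share their 6 rows and are not independent of each other. The 4 pairs at the smallest p all hold the Gjc1 row, which separated the groups by itself. They are therefore no separate support for the Gjc1 difference.

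The pairs that contain Gja1 but not Gjc1 overlapped between the groups. The Gja1 ratio differed by 0.49 to Gja4, by 0.45 to Gjb2, by 0.33 to Gja3 and by 0.21 to Gja5, with exact permutation p-values of 0.114, 0.200, 0.143 and 0.457. A higher ratio of Gja1 to these 4 members was therefore not shown at this number of arrays. Among Gja5, Gja4, Gja3 and Gjb2 the largest difference of a ratio was 0.29, for Gja5 over Gja4 (exact permutation p = 0.257).

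**Figure D2:**
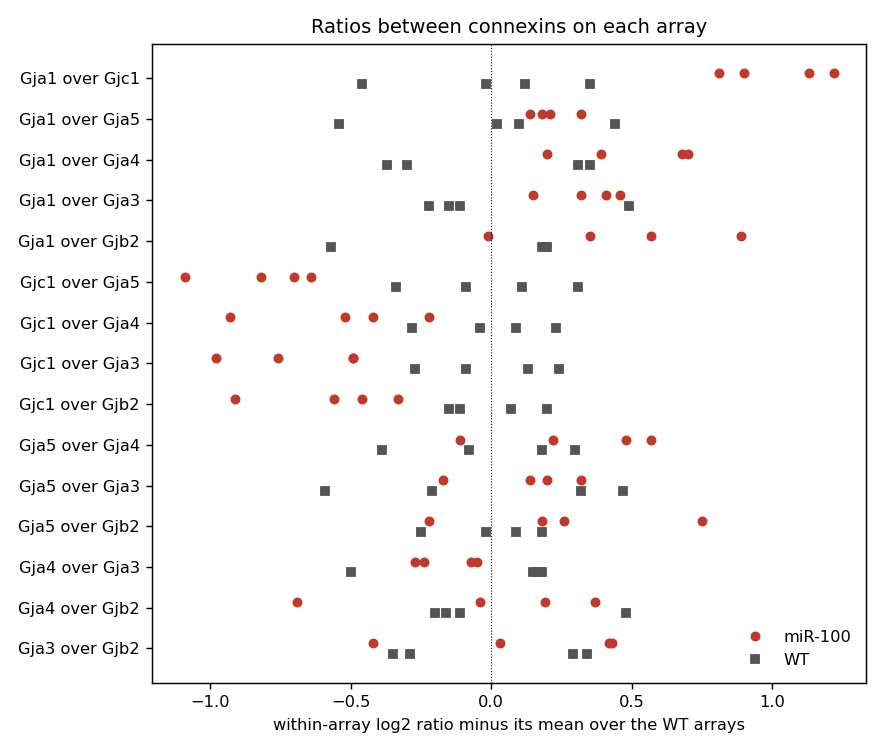
Within-array log2 ratios (horizontal axis) for the 15 pairs of connexin genes, each set to 0 at its mean over the WT arrays. Red circles are the 4 miR-100 arrays and grey squares the 4 WT arrays. The miR-100 arrays lie apart from the WT arrays for Gja1 over Gjc1, at 0.81 to 1.22, and for the Gjc1 ratios to Gja5, Gja3 and Gjb2.

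The wider family showed no called difference. Of 13 other connexin and pannexin genes with a row, 0 passed an adjusted p of 0.05 (limma), 0 had an unadjusted p under 0.05, and 0 had groups that did not overlap, against 4.54% of all rows. Their differences ran from -0.33 to 0.36 with a median of 0.02, where all rows had -0.015. The lowest unadjusted p belonged to Panx3, a pannexin of bone and cartilage, at 4.49 ± 0.24 in miR-100 and 4.12 ± 0.39 in WT hearts (log2 signal, SD, n = 4 each, limma adjusted p = 0.712). Gjc3, a connexin gene of myelinating glia, followed with 5.51 ± 0.34 in miR-100 and 5.84 ± 0.34 in WT hearts (log2 signal, SD, n = 4 each, limma adjusted p = 0.777).

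**Figure D3:**
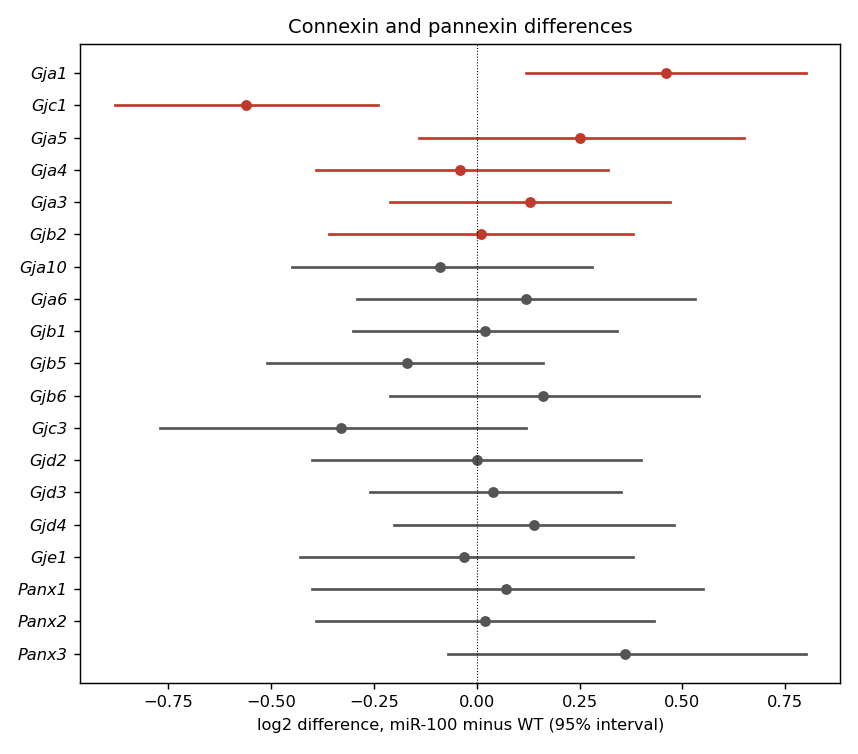
Log2 differences, miR-100 minus WT (horizontal axis), with 95% confidence intervals from limma for the 6 connexin genes (red) and the 13 other connexins and pannexins (grey). The intervals of Gja1 and Gjc1 exclude 0 on opposite sides, without adjustment for the number of rows, and the other intervals include 0.

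Gap junction plaques sit in the intercalated disc beside adherens junctions and desmosomes, so 17 measured genes of that structure were set beside the connexins. Of these, 12 had differences above 0 and 5 below, with a median of 0.06, where 46.6% of all rows lay above 0. None passed an adjusted p of 0.05 (0 in limma). At an unadjusted p under 0.05, 1 of 17 was higher, against 3.55% of all rows, and 2 of 17 were lower, against 4.17%. Ctnna3 encodes alpha-T-catenin, which anchors the adherens junctions of heart muscle to actin. It had 10.97, 10.64, 10.57 and 10.66 in miR-100 hearts, against 11.61, 11.56, 11.06 and 11.24 in WT hearts (log2 signal). The groups did not overlap, and the difference was -0.66 (SE 0.17, limma adjusted p = 0.222). Dsc2, a desmosomal cadherin gene, had 10.55, 10.25, 10.31 and 10.15 in miR-100 hearts, against 10.31, 9.42, 9.44 and 9.85 in WT hearts (log2 signal). WT replicate 1 reached into the miR-100 range, and the difference was 0.56 (SE 0.20, limma adjusted p = 0.459). The groups did not overlap in 2 of the 17, Ctnna3 and Lmo7, against 4.54% of all rows. Lmo7, a LIM domain gene of the disc, differed by -0.25 (limma adjusted p = 0.709). Besides Ctnna3, the gene lower at an unadjusted p under 0.05 was Xirp2, at -0.35 (limma adjusted p = 0.628). Lmo7 and Xirp2 were picked with their values in view.

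The genes of a connexin 43 scaffold and of the N-cadherin of the disc had no called difference in RNA. Tjp1, whose product ZO-1 binds the tail of connexin 43, had 12.21 ± 0.12 in miR-100 and 12.15 ± 0.32 in WT hearts (log2 signal, SD, n = 4 each). Cdh2, the N-cadherin gene, had 16.31 ± 0.08 in miR-100 and 16.35 ± 0.02 in WT hearts (log2 signal, SD, n = 4 each). Both were picked with their values in view. Of 15 kinases, scaffolds and turnover factors that act on connexins, 0 passed an adjusted p of 0.05 and 0 had an unadjusted p under 0.05 (limma), with a median difference of 0.05. The lowest unadjusted p were those of Dbn1, the drebrin gene, at 0.30 (limma adjusted p = 0.674), and Cav3, the muscle caveolin gene, at -0.32 (limma adjusted p = 0.675).

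Connexin genes are controlled in the heart by T-box, NKX2, GATA and other factors. Of 22 such factors, 11 had differences above 0 and 11 below, the median was -0.03, and 0 passed an adjusted p of 0.05 (limma). At an unadjusted p under 0.05, 3 were lower in miR-100 hearts, against 4.17% of all rows, and 0 higher. Tbx5, a T-box activator of Gja5 in the mouse heart, had 8.83, 8.63, 8.57 and 8.57 in miR-100 hearts, against 9.16, 9.35, 8.86 and 9.01 in WT hearts (log2 signal). The groups were separated by 0.03, and the difference was -0.44 (SE 0.15, limma adjusted p = 0.425). Sox17, an arterial endothelial factor, differed by -0.42 (limma adjusted p = 0.614), on a row at percentile 31.3 of all row means. Id2, an inhibitor of helix-loop-helix factors that takes part in the conduction system and the third of these, differed by -0.40 (limma adjusted p = 0.629) and was picked with its values in view.

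The promoter of Gja1 is shown because Gja1 is the member with the higher signal in miR-100 hearts that did not overlap between the groups. The table of promoters held 5 of the members. The stretch below is chr10:56377050-56377349 on the plus strand (RefSeq, GRCm38.p6), from 250 bases before the transcription start to 50 bases counted from it, and capitals mark the motifs found.
Gja1 promoter: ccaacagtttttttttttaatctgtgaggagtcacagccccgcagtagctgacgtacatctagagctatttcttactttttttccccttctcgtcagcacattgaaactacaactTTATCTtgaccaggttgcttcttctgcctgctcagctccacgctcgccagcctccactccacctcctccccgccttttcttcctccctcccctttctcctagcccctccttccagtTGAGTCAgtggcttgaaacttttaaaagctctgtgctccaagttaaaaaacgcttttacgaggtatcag
Searched on both strands were the letters TGANTCA for AP-1, GGGCGG for SP1, GGTGTGA for T-box factors, CAAGTG for NKX2 factors, AGATAA for GATA factors and TATAAA for a TATA box. The Gja1 stretch held 1 AP-1 match, beginning at position -19 from the start, and 1 GATA match on the opposite strand at -135. Of 32851 promoters in the table, 7.81% held the AP-1 letters and 11.2% the GATA letters. None of the promoters of Gja5, Gja4, Gja3 and Gjb2 in the table held the AP-1 letters, and 4 of the 5 genes held the SP1 letters, as did 35.7% of all promoters. Jun, a subunit of AP-1, had 8.84 ± 0.12 in miR-100 and 9.07 ± 0.25 in WT hearts (log2 signal, SD, n = 4 each, limma adjusted p = 0.795), and Gata4 had 12.43 ± 0.09 in miR-100 and 12.31 ± 0.24 in WT hearts (log2 signal, SD, n = 4 each, limma adjusted p = 0.919). Both were picked with their values in view. A match is a string of letters and not a shown binding site.

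Marker lists of the cells that carry these connexins were measured on the same arrays. The 11 heart muscle markers averaged 18.29 to 18.31 log2 signal on the miR-100 arrays and 18.27 to 18.33 on the WT arrays. The median difference was -0.02, and these ranges overlap. Some of these rows lay close to the ceiling of 19.93, such as Tnnt2 (19.80 in miR-100, 19.78 in WT) and Pln (19.64 and 19.63). A change in muscle content could go unseen in such rows, and this was not tested. The groups did not overlap in 2 of the 11 markers, against 4.54% of all rows. Mybpc3, a myosin-binding protein gene, was higher without overlap, at 0.40 (limma adjusted p = 0.520). Myl3, a myosin light chain gene, was lower without overlap, at -0.28 (limma adjusted p = 0.689). Both were picked with their values in view. For the labelled tissue, the atrial markers were mixed: Stard10, Nr2f2, Kcna5 and Myl4 stood at percentiles 81.8, 81.8, 74.2 and 67.9 of all row means, Sln, Dkk3, Myl7, Bmp10 and Dhrs9 at 46.6, 43.8, 22.0, 14.2 and 1.4. The 9 atrial markers averaged 6.18 to 6.34 on the miR-100 arrays and 6.38 to 6.49 on the WT arrays, with 2 differences above 0, 7 below and a median of -0.10. None of the 9 passed an adjusted p of 0.05 (0 in limma). At an unadjusted p under 0.05, 1 of 9, Dkk3, was lower, against 4.17% of all rows, and 0 higher. The part of atrial tissue in the Gjc1 result was not tested.

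Conduction system markers bear on Gjc1 and Gja5. The 15 with a row averaged 5.44 to 5.68 log2 signal on the miR-100 arrays and 5.51 to 5.63 on the WT arrays, with 5 differences above 0, 10 below and a median of -0.04. At an unadjusted p under 0.05, 1 of 15 was higher, against 3.55% of all rows, and 2 of 15 were lower, against 4.17% of all rows. Etv1, a transcription factor gene of fast-conducting tissue, had 8.20, 7.93, 8.07 and 8.03 in miR-100 hearts, against 8.27, 8.64, 8.58 and 8.48 in WT hearts (log2 signal), a difference of -0.44 without overlap (limma adjusted p = 0.404). Cntn2, a contactin gene that marks Purkinje cells, differed by -0.51 (limma adjusted p = 0.571), and Rgs6, a regulator of G protein signalling in pacemaker cells, by 0.53 (limma adjusted p = 0.376). The pacemaker channel gene Hcn4 differed by -0.27 with a wide spread in miR-100 hearts (SD 0.59, limma adjusted p = 0.873). These 4 genes were picked for the text with their values in view, and their part in the Gjc1 result was not tested.

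Vascular and connective tissue markers bear on Gja4, Gja5, Gjc1 and Gja1. Per array, 11 endothelial markers averaged 10.30 to 10.43 in miR-100 and 10.29 to 10.36 in WT hearts, and 13 arterial markers averaged 7.43 to 7.62 in miR-100 and 7.49 to 7.58 in WT hearts (log2 signal). Of the 11, 4 had differences above 0 and 7 below. At an unadjusted p under 0.05 (limma), 1 of 11, Cldn5, was higher, against 3.55% of all rows, and 0 lower. Cldn5 differed by 0.55 (limma adjusted p = 0.379) and was picked with its values in view. The 12 smooth muscle and pericyte markers averaged 9.29 to 9.55 in miR-100 and 9.37 to 9.53 in WT hearts. Among them Acta2, the smooth muscle actin gene, had 13.74, 14.01, 14.66 and 12.94 in miR-100 hearts, against 12.86, 12.71, 12.72 and 12.61 in WT hearts (log2 signal), a difference of 1.11 without overlap (limma adjusted p = 0.203). Kcnj8, a potassium channel gene of pericytes, was lower without overlap at -0.31 (limma adjusted p = 0.609). These were the 2 of 12 without overlap, against 4.54% of all rows. At an unadjusted p under 0.05 (limma), 1 of 12 was higher, against 3.55% of all rows, and 1 lower, against 4.17%. The list had 5 differences above 0, 7 below and a median of -0.06. Both genes were picked with their values in view.

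The remaining lists overlapped between the groups. The 9 fibroblast markers averaged 9.92 to 10.24 in miR-100 and 10.02 to 10.36 in WT hearts, and the 9 macrophage markers 8.28 to 8.63 in miR-100 and 8.19 to 8.59 in WT hearts (log2 signal). The 7 lymphatic endothelial markers averaged 7.68 to 8.00 in miR-100 and 7.95 to 8.16 in WT hearts, and 4 Schwann cell markers 5.26 to 5.59 in miR-100 and 5.24 to 5.52 in WT hearts. Of the 7, 3 had differences above 0 and 4 below. At an unadjusted p under 0.05 (limma), 1 of 7, Lyve1, was lower, against 4.17% of all rows, and 0 higher. Lyve1 differed by -0.64 (limma adjusted p = 0.469) and was picked with its values in view. No marker passed an adjusted p of 0.05 in any list (0 in limma), and 10 of 100 had an unadjusted p under 0.05, against 7.73% of all rows. None of these list averages separated the groups as Gja1 and Gjc1 did, except that of the atrial markers. Of the atrial markers 2 had differences above 0 and 7 below, where 46.6% of all rows lay above 0. The lowest atrial markers were Myl7 and Dkk3, at -0.40 each on rows at percentiles 22.0 and 43.8, then Nr2f2 (-0.30) and Myl4 (-0.26). Sln differed by -0.01 and Bmp10 by 0.08. Whether the share of atrial tissue differed was not tested.

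**Figure D4:**
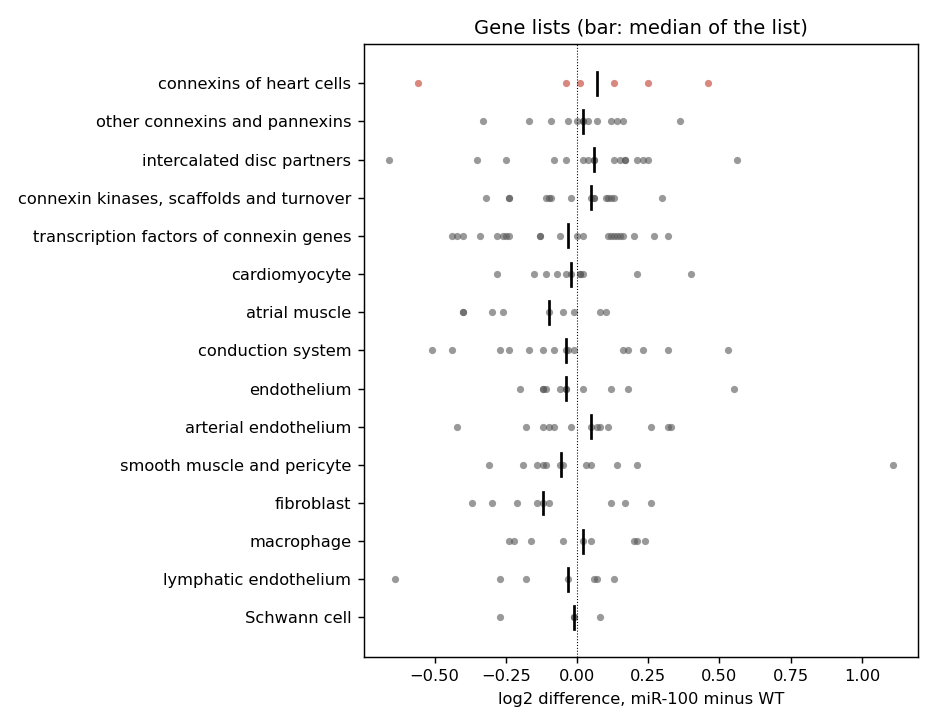
Log2 differences, miR-100 minus WT (horizontal axis), of the genes of each list, with the median of the list as a black bar. The 6 connexins (red) run from -0.56 for Gjc1 to 0.46 for Gja1, and the point farthest to the right is Acta2 at 1.11.

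Rows whose profile over the 8 arrays was most like that of a connexin were found by the root mean square distance between profiles centred on each row's mean, among 9991 other named rows brighter than the median row for Gja1, Gjc1 and Gja3. For Gja1 these were Synj2 (distance 0.091), Ikbkb (0.092) and Srpk2 (0.099), against a spread of Gja1 about its own mean of 0.288 log2 units. For Gjc1 they were Tob2 (distance 0.094), Sema7a (0.10) and Btbd3 (0.125), against a spread of 0.310. All 6 lay on the same side as their connexin, with differences of 0.50, 0.33 and 0.31 for the first set and -0.51, -0.52 and -0.47 for the second, as the choice by profile requires. With only 8 arrays such likeness is common: 2041 rows were nearer to Gja1 and 1934 nearer to Gjc1 than a flat profile would be. The nearest rows were Cnpy4, Arhgef19 and Msantd4 for Gja5, Fundc2, Setd3 and Prkrip1 for Gja4, Mrpl39, Rbm20 and Ift172 for Gja3, and Zmym5, Cd3eap and Med9 for Gjb2, at distances of 0.027 to 0.119.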

How the data were processed

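Total RNA was extracted with TriPure and labelled with the Affymetrix WT Plus kit, per the labels' protocols. The authors deposited log2 signals per transcript cluster, a group of probes against 1 transcribed region, for which the submitters' processing notes name Transcriptome Analysis Console 4.0. How probes were summarized and normalized, and on which genome build, is not given in the sources used here. Similar column medians show that the arrays were put on a common scale before deposit, which leaves differences between groups relative.

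Symbols came from the platform annotation, with 1 symbol for 19572 rows, several for 0 and none for 2634, and all 19572 Entrez numbers were found in RefSeq (GRCm38.p6). Where a symbol had several rows, the row with the highest mean stood for it. Differences are miR-100 minus WT, fitted on all 22206 rows without covariates or filter with limma 3.58.1 in R 4.3.3 (linear models, empirical Bayes), adjusted by Benjamini-Hochberg with a threshold of 0.05. Pairs of connexins were compared on within-array log2 ratios by exact permutation. The code was tested on simulated data.

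The members, lists and tests were chosen with earlier results of these data known. The text names all members, the members of each gene list past the threshold or otherwise the 2 with the lowest unadjusted p, and for each connexin the 3 rows with the nearest profile. Same-numbered arrays of the groups did not deviate together (correlations of -0.060 to 0.066 over rows), so the numbers were not used as pairs. Alternatives were other moderation, quantile normalization, median centring, array weights, filters on dim rows, a looser threshold, a replicate block and leaving out each array.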

Additional observations from a re-analysis of the deposited data

Results flagged for a closer look

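In 42 groups of 4 arrays, for the 6 connexins and their 15 ratios, 4 held an array far from the others by its gap to the nearest value as a share of the group's range. By this criterion about 1 in 20 groups stands out by chance, and the ratios share rows. All 4 were WT groups: Gja1 over Gjb2 (share 0.974, WT replicate 3 lowest), Gja4 over Gja3 (0.942, WT replicate 2 lowest), Gja4 over Gjb2 (0.868, WT replicate 4 highest) and Gja1 over Gja3 (0.845, WT replicate 1 highest). No single connexin and no ratio of Gjc1 stood out in this way.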

How the results depend on the processing

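No connexin passed the threshold under any of the 17 alternatives run, which include an adjusted p of 0.1. The count was also 0 in each fit without an array. Of the pairs, 0 of 15 passed in any of their alternatives. That outcome was limited by the design, as the smallest exact permutation p of 0.0286 passes only if many pairs share it. With the replicate block no pair could pass, as the smallest exact sign-flip p was 0.125. Gja1 kept its direction in 16 of 16 alternatives, at 0.36 to 0.53 with limma adjusted p between 0.188 and 0.667. Gjc1 did so in 16 of 16, at -0.61 to -0.48 with limma adjusted p between 0.133 and 0.535, Gja3 in 16 of 16 (0.04 to 0.22) and Gja5 in 15 of 15 (0.13 to 0.36). Differences near 0 turned. Gja4 was 0.08 without miR-100 replicate 3, 0.01 without WT replicate 3 and 0.03 without WT replicate 4, and ran from -0.11 to 0.08 without single arrays. Gjb2 was -0.01 with array weights, -0.01 without miR-100 replicate 2, -0.10 without miR-100 replicate 3, -0.01 without WT replicate 2 and -0.09 without WT replicate 4, and ran from -0.10 to 0.12 without single arrays. The cause was not tested. Gja5, Gja4 and Gjb2 fell below the filter at the 50th percentile and have no value there. With the replicate block, whose numbers do not pair the arrays, Gja1 and Gjc1 had differences of 0.46 and -0.56 (limma adjusted p = 0.542 and 0.370), 21 rows passed over the whole table, and the Gja1 to Gjc1 ratio had an exact sign-flip p of 0.125, the smallest that test can give. The count of all rows past the threshold was 65 with an intensity trend (40 higher, 25 lower), 65 at an adjusted p of 0.1, and 11 to 27 without single arrays. The Gja1 to Gjc1 ratio ran from 0.87 to 1.14 without single arrays. Each connexin had 1 row, so another choice of row gave no value. The deposited values give no background level, so what signal over background limits was not measured.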
